A study of Mus musculus with 12 samples.

Results

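The hypoxia-inducible factor (HIF) pathway was followed in mouse osteoclasts through 10 genes of its core: the prolyl hydroxylase genes *Egln1*, *Egln2* and *Egln3*, the asparaginyl hydroxylase gene *Hif1an*, *Vhl*, the HIF alpha subunit genes *Hif1a* and *Epas1*, and the targets *Vegfa*, *Bnip3* and *Ankrd37*. They make up 10 of the 47643 genes in the count table and were found by their symbols, 1 row each. The set was chosen by function with the group differences of these same libraries already known, and the values of the 10 genes between groups are therefore given as a description, with no p-value. How many of them crossed the limits used for all genes is stated once, also as a description. All 10 passed the filter on low counts, which left 13681 genes for the tests.

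Bulk RNA-seq. was performed on osteoclasts that were differentiated from BALB/c bone marrow monocytes (BMMs) of the genotype WT in the presence of M-CSF and RANKL, the cytokines that drive osteoclast formation. In OCsEo, the BMMs were cultured from day 0 with sorted eosinophils of IL-5tg/4get mice, 2 eosinophils per BMM, and in OCsEoS with supernatant of eosinophils at a 1:2 dilution, whereas OCsCtr received neither. The stimuli were taken away and the cells washed after 48 h, and RNA was collected on day 3, 1 day after the last contact. Each group held 4 libraries. All 3 groups share the WT monocytes, the base medium and the M-CSF and RANKL levels, which were adjusted where supernatant was added. Part of the medium in OCsEoS had already been used by eosinophils for 48 h, and the wells of OCsEo held the added eosinophils. The part of used medium and of cell number in the results was not tested. The stimuli met monocytes that were still differentiating rather than finished osteoclasts. The RNA came from the whole well, so that fewer cells of a type and less RNA per cell cannot be told apart.

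In cells with enough oxygen, the EGLN enzymes, also known as PHD2 (EGLN1), PHD1 (EGLN2) and PHD3 (EGLN3), hydroxylate prolines of the HIF alpha subunits, which the VHL ubiquitin ligase then recognises for degradation. HIF1AN (FIH) hydroxylates an asparagine and thereby weakens the binding of coactivators. When oxygen is low, the alpha subunits accumulate as proteins, pair with ARNT and switch on genes for glycolysis, angiogenesis and mitophagy, and also *Egln3* and *Egln1*, which feed back on the pathway. Regulation of HIF-1 alpha lies largely in protein stability, which RNA counts do not measure. Osteoclasts are rich in mitochondria and work in bone, a tissue with low oxygen.

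HIF binds a short core motif, ACGTG or GCGTG, in the control regions of its targets. The sequences just before the transcription start of *Egln3*, *Bnip3* and *Ankrd37* are shown because these 3 genes carried the greatest rises among the 10. They are RefSeq sequences of GRCm38.p6, written 5′ to 3′ on the minus strand, on which all 3 genes lie, with every match to ACGTG or GCGTG on either strand in capitals and stretches annotated as exon left out.
Egln3: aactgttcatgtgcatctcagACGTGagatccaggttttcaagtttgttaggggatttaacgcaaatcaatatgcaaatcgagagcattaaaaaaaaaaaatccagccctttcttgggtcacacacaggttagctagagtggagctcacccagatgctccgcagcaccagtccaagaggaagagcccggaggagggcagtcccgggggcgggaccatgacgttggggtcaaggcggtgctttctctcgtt
Bnip3: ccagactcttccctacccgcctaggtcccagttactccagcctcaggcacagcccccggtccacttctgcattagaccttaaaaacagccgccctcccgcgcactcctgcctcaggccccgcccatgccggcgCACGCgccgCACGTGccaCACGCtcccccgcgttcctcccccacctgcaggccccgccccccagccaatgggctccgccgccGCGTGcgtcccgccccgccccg
Ankrd37: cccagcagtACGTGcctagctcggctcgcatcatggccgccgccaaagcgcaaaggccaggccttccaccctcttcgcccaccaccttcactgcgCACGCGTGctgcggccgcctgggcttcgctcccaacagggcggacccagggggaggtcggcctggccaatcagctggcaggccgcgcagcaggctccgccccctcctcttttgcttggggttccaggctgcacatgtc
The *Egln3* stretch (chr12:54203875-54204124) held 1 match, 229 bases before the start. The *Bnip3* stretch (chr7:138909520-138909756) held 5 matches, of which CACGTG counts on both strands and the matches at 117, 99 and 35 bases before the start stand alone. The *Ankrd37* stretch (chr8:45999868-46000100) held 3 matches, 2 of which share bases in CACGCGTG, and the base run between it and the start held a further match 6 bases before the start. In windows from 250 bases before to 50 bases after the start, *Egln3* had 1 match, *Ankrd37* 4 and *Bnip3* 5. At least 1 match occurred in 43.8% of all 32851 windows of the table, 4 or more in 3.86% and 5 or more in 1.66%. *Egln1* had 2 matches, *Hif1a* 3, the 2 listed starts of *Egln2* 6 and 1, those of *Vegfa* 0 and 2, and *Vhl* and *Hif1an* had 0. The table covered 9 of the 10 genes, without *Epas1*. A match describes the letters and no binding was measured here.

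The libraries held 27837530 to 40327869 counts, so that 3 counts, a floor for genes without signal, stood for 0.0769 to 0.107 CPM, the usual unit of counts relative to the library total. Levels are CPM on library sizes scaled by trimmed mean of M-values (TMM), and levels of different genes are compared only as CPM per kb of the gene length given with the table. Mitochondrial transcripts took 0.487% to 1.43% of the counts, most in OCsCtr 1. Osteoclast markers were abundant in every library, 28358 to 34496 CPM summed over 10 markers in OCsCtr, 18093 to 23205 in OCsEo and 14942 to 22171 in OCsEoS, and 8 of the 10 were lower in each stimulated group. Macrophage markers summed to 5262 to 5781 CPM in OCsCtr, 5789 to 7231 in OCsEo and 5483 to 6459 in OCsEoS, with 2 and 3 of 8 higher. The sum of 10 eosinophil markers was 57.1 to 73.7 CPM in OCsCtr, 60.1 to 82.2 in OCsEo and 49.3 to 55.5 in OCsEoS, most of it *Ccr3*. The defining gene *Epx* stayed at 0 to 0.177 CPM in OCsCtr, 0 to 0.479 CPM in OCsEo and 0 in OCsEoS. Of the 10, 5 passed the filter on low counts and were tested. Among these, *Siglecf* and *Alox15* were higher in OCsEo, and 1 was lower in OCsEoS. *Prg2* was at 3.85 to 7.83 CPM in OCsCtr and 0 to 1.79 CPM in OCsEoS. The 10 neutrophil markers summed to 314 to 457 CPM in OCsCtr, 457 to 611 in OCsEo and 358 to 427 in OCsEoS, with 2 of 10 higher in OCsEo. Of the other lists, 4 of 7 T cell, 6 of 6 B cell, 2 of 6 mast cell and basophil, and 5 of 6 endothelial and stromal genes were tested. None of those tested passed in either comparison with OCsCtr. The part of these shifts in cell markers in the results that follow was not tested.

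*Egln3* (ENSMUSG00000035105, chr12:54178981-54203860), the gene of PHD3, stood out among the hydroxylases. Its level was 1.39, 0.683, 1.32 and 1.27 CPM in OCsCtr 1 to 4, from 40, 23, 45 and 41 counts. In OCsEo 1 to 4 it was 2.45, 4.73, 6.72 and 12.5 CPM, from 82, 178, 262 and 362 counts. In OCsEoS 1 to 4 it was 3.63, 3.85, 3.47 and 0.554 CPM, from 102, 133, 117 and 19 counts. Every OCsEo library lay above every OCsCtr library, with OCsEo 1 closest to the controls and OCsEo 4 farthest from them. Of the OCsEoS libraries, 3 lay close together above OCsCtr, and OCsEoS 4 lay below all 4 control libraries. The fitted difference of OCsEo from OCsCtr was 2.50 on the log2 scale (SE 0.49), a 5.65-fold higher level, and that of OCsEoS from OCsCtr was 1.30 (SE 0.49), 2.46-fold. Between the stimulated groups, *Egln3* was 1.20 lower in OCsEoS on the log2 scale (log2 change -1.20, SE 0.46), and the libraries of both groups overlapped. Without OCsEo 4 the difference of OCsEo from OCsCtr was 1.99, without OCsEo 1 it was 2.77, and without OCsEoS 4 the difference of OCsEoS from OCsCtr was 1.65. In OCsEo, 3 of the 10 genes lay fully above the controls and 0 fully below. Of the 13681 genes tested, 1441 lay fully above and 1498 fully below.

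*Egln1* (ENSMUSG00000031987, chr8:124908596-124949254), the gene of PHD2, the hydroxylase held to set HIF-1 alpha turnover in most cells, moved less. It was at 49.7, 44.2, 43.8 and 42.8 CPM in OCsCtr, 55.3, 65.7, 61.5 and 74.4 CPM in OCsEo, and 66.0, 54.8, 43.8 and 53.2 CPM in OCsEoS. All OCsEo libraries exceeded all controls, again with OCsEo 1 lowest and OCsEo 4 highest, and OCsEoS overlapped both other groups. The log2 difference from OCsCtr was 0.51 (SE 0.11) in OCsEo and 0.27 (SE 0.11) in OCsEoS. *Egln2* (ENSMUSG00000058709, chr7:27158658-27166802), which encodes PHD1, was at 43.4 to 56.7 CPM in OCsCtr, 40.6 to 53.8 in OCsEo and 48.0 to 56.4 in OCsEoS. The 3 groups overlapped over most of their ranges, and the log2 differences from OCsCtr were -0.07 and 0.04 (SE 0.10 each). Exons of *Egln2* overlap those of *Cyp2t4* on the opposite strand, and as the counting is not stated to use strand, reads of the pair cannot be told apart.

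**Figure D1:**
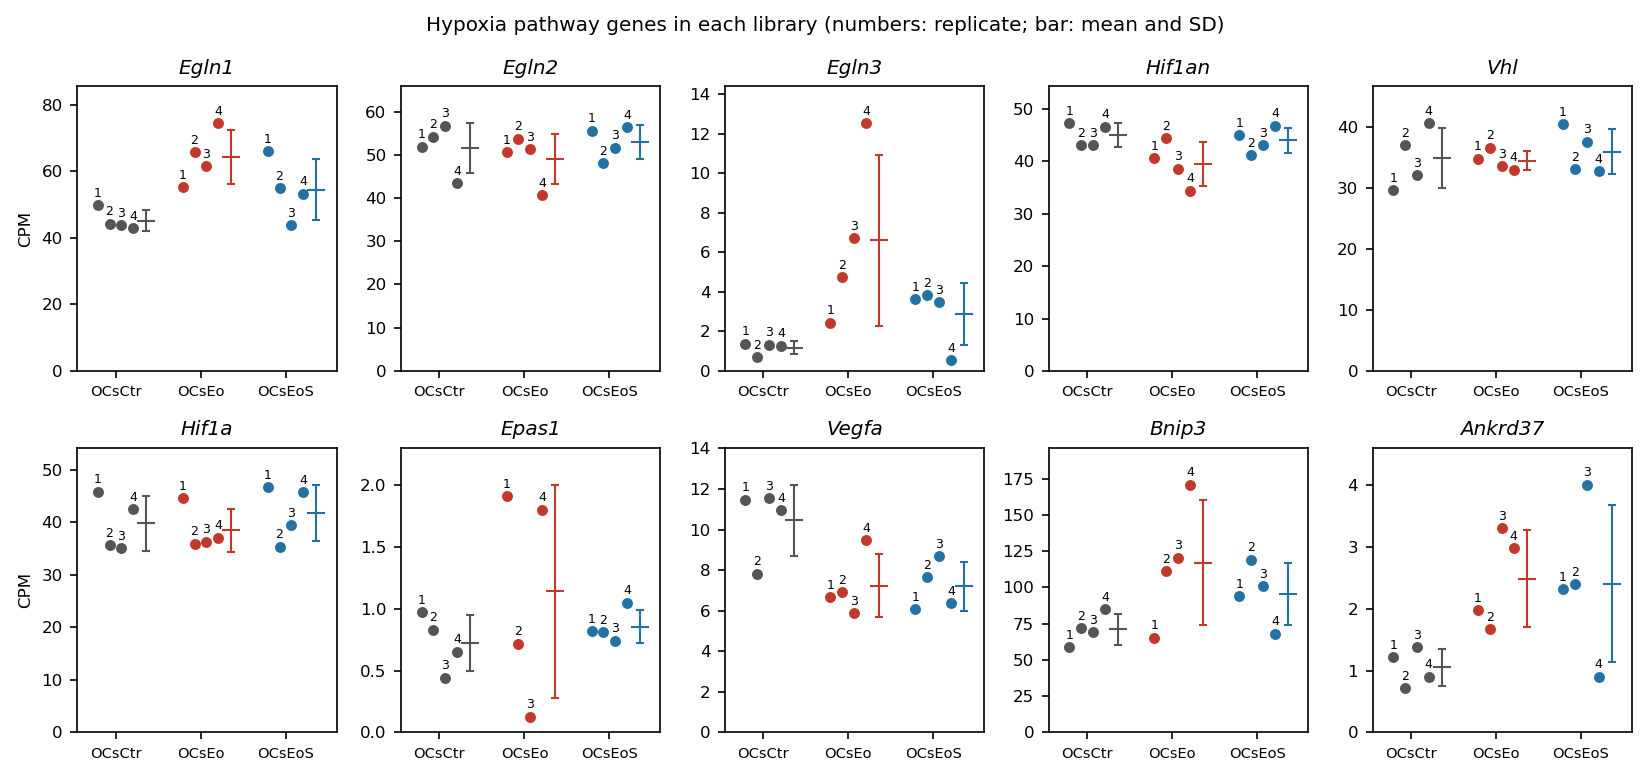
Level in CPM (y axis, linear, from 0) of each of the 10 genes in the 12 libraries, grouped as OCsCtr, OCsEo and OCsEoS, each point being 1 library with its replicate number and the bar the mean and SD of 4 libraries. *Egln3* runs from 2.45 to 12.5 CPM in OCsEo against 0.683 to 1.39 CPM in OCsCtr, whereas *Hif1a*, *Vhl* and *Egln2* overlap in the 3 groups.

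Per kb, *Egln3* remained the minor hydroxylase transcript in every library. In OCsCtr, *Egln2* stood at 18.4 ± 2.07 CPM per kb, *Egln1* at 12.8 ± 0.887 and *Egln3* at 0.439 ± 0.123 (SD, n = 4 each). In OCsEo the levels were 17.5 ± 2.07, 18.3 ± 2.29 and 2.48 ± 1.62 CPM per kb. *Egln3* thus accounted for 1.39% ± 0.41 of the summed level of the 3 genes in OCsCtr, 6.34% ± 3.89 in OCsEo and 3.07% ± 1.69 in OCsEoS (SD, n = 4). By library, its share was 1.57%, 0.796%, 1.499% and 1.70% in OCsCtr, 2.65%, 4.48%, 6.58% and 11.7% in OCsEo, and 3.41%, 4.23%, 4.05% and 0.586% in OCsEoS. The share of *Egln1* was 40.6% ± 2.77 in OCsCtr, 47.6% ± 3.31 in OCsEo and 43.5% ± 3.68 in OCsEoS, and that of *Egln2* 58.0% ± 3.00, 46.1% ± 7.01 and 53.5% ± 4.13. The order of *Egln2* over *Egln1* seen in OCsCtr was thus no longer separated by the SDs in OCsEo. By library, *Egln2* stayed above *Egln1* in OCsEo 1 (52.1% against 45.3%), OCsEo 2 (48.4% against 47.1%) and OCsEo 3 (47.8% against 45.6%). The order was reversed in OCsEo 4 alone (35.9% against 52.4%).

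**Figure D2:**
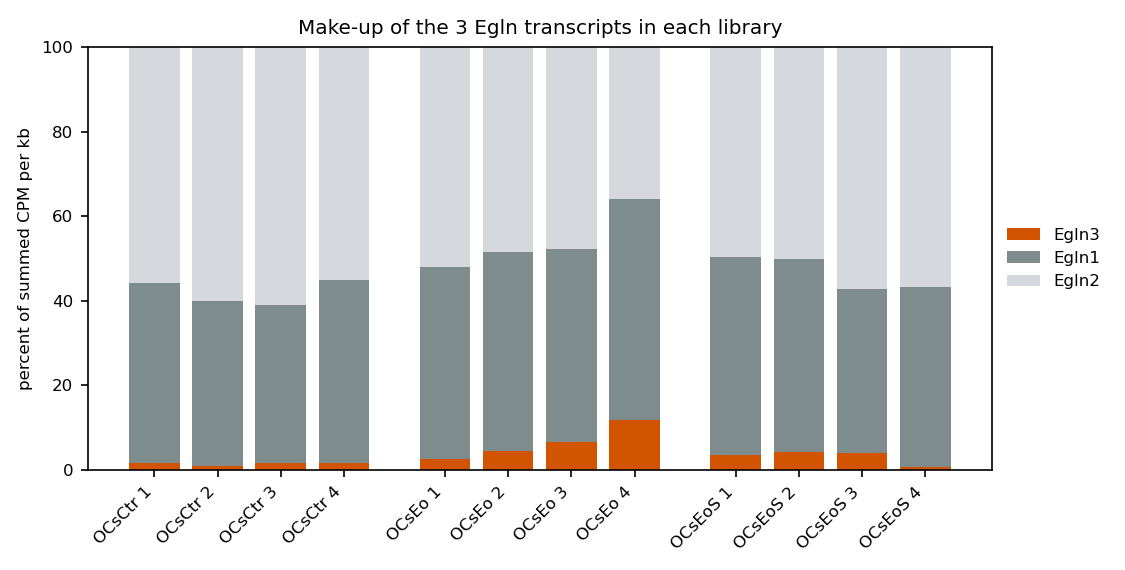
Stacked bars of the percent that *Egln3*, *Egln1* and *Egln2* each contribute to their summed CPM per kb (y axis, 0 to 100) in each of the 12 libraries (x axis). The *Egln3* part is 2.65% to 11.7% in OCsEo, at most 1.70% in OCsCtr and 0.586% in OCsEoS 4.

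The genes that act on HIF beside the prolyl hydroxylases had overlapping levels in the 3 groups. *Hif1an* (ENSMUSG00000036450, chr19:44562850-44576274) was at 43.0 to 47.3 CPM in OCsCtr, 34.4 to 44.4 in OCsEo and 41.2 to 46.8 in OCsEoS, with log2 differences from OCsCtr of -0.19 (SE 0.08) and -0.03 (SE 0.08). The overlap of OCsEo with the controls came from OCsEo 2 at 44.4 CPM. OCsEo 1, OCsEo 3 and OCsEo 4, at 40.6, 38.6 and 34.4 CPM, lay below all controls. OCsEo 4, the library highest for *Egln3*, was the lowest for *Hif1an*. *Vhl* (ENSMUSG00000033933, chr6:113623959-113631633), the substrate receptor of the ligase, was at 29.6 to 40.6 CPM in OCsCtr, 33.0 to 36.6 in OCsEo and 32.7 to 40.4 in OCsEoS. Its stimulated libraries lay within the span of the controls, and the differences were -0.02 (SE 0.10) and 0.04 (SE 0.10) on the log2 scale.

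Transcripts of the HIF alpha subunits did not separate the groups. *Hif1a* (ENSMUSG00000021109, chr12:73901375-73947530) was at 45.9, 35.7, 35.0 and 42.6 CPM in OCsCtr, 44.6, 35.9, 36.3 and 37.1 CPM in OCsEo, and 46.7, 35.4, 39.4 and 45.7 CPM in OCsEoS. Each group had libraries near the lowest and near the highest of these values, and the log2 differences from OCsCtr were -0.05 (SE 0.11) in OCsEo and 0.07 (SE 0.11) in OCsEoS. *Epas1* (ENSMUSG00000024140, chr17:86753907-86833410), the gene of HIF-2 alpha, was rare, with 15 to 28 counts in OCsCtr, 64, 27, 5 and 52 in OCsEo 1 to 4, and 23 to 36 in OCsEoS. In CPM this was 0.442 to 0.971, 0.128 to 1.91 and 0.742 to 1.05, so that OCsEo held both the highest and the lowest library. The log2 differences of 0.65 (SE 0.62) and 0.24 (SE 0.62) were about the size of their errors or smaller. Per kb, *Hif1a* exceeded *Epas1* in OCsCtr with 6.75 ± 0.899 against 0.136 ± 0.0431 CPM per kb (SD, n = 4). *Hif1a* overlaps the antisense gene *Gm15283* and *Gm49321*, a gene on its own strand.

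Of the targets, *Bnip3* (ENSMUSG00000078566, chr7:138890836-138909519), a receptor of mitophagy in the outer mitochondrial membrane, was the most abundant of the 10 per kb. Its level was 59.0, 71.8, 69.1 and 85.0 CPM in OCsCtr, 65.5, 111, 121 and 171 CPM in OCsEo, and 94.0, 119, 101 and 68.0 CPM in OCsEoS. OCsEo 1 and OCsEoS 4 lay among the controls, and the other 6 stimulated libraries lay above all of them. The log2 difference from OCsCtr was 0.72 (SE 0.20) in OCsEo and 0.42 (SE 0.20) in OCsEoS, and without OCsEo 4 the former was 0.48. The 5 matches to the HIF core motif printed above lie before this gene, and the antisense gene *Gm45507* overlaps it.

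*Ankrd37* (ENSMUSG00000050914, chr8:45996902-45999867), which encodes a small ankyrin repeat protein and is a known HIF-1 target, was at 1.21, 0.712, 1.38 and 0.902 CPM in OCsCtr, from 24 to 47 counts. It was at 1.97, 1.67, 3.31 and 2.98 CPM in OCsEo and at 2.31, 2.40, 4.01 and 0.904 CPM in OCsEoS. All OCsEo libraries lay above the controls, as did 3 of OCsEoS, and OCsEoS 4 lay among the controls, whereas for *Egln3* it lay below them. The log2 difference from OCsCtr was 1.24 (SE 0.40) in OCsEo, 2.35-fold, and 1.19 (SE 0.40) in OCsEoS, 2.28-fold. Without OCsEo 3 the first was 1.06, and without OCsEoS 3 the second was 0.83. In GENCODE vM21, where the gene reaches to 46005707 and so past the end used for counting, exons of *Ankrd37* overlap those of *Ufsp2* and *Lrp2bp* on the opposite strand. Whether this overlap touches the exons that were counted was not examined.

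*Vegfa* (ENSMUSG00000023951, chr17:46016993-46032377), the angiogenic growth factor and a classical HIF target, went the other way. It was at 11.5, 7.83, 11.5 and 10.9 CPM in OCsCtr, 6.66, 6.91, 5.87 and 9.49 CPM in OCsEo, and 6.09, 7.64, 8.70 and 6.36 CPM in OCsEoS. OCsCtr 2 lay among the stimulated libraries, and the other 3 controls lay above all 8 of them. The log2 difference from OCsCtr was -0.53 (SE 0.18) in OCsEo and -0.54 (SE 0.18) in OCsEoS. OCsEo 4 had the highest *Vegfa* of the stimulated libraries as well as the highest *Egln3*, and without it the difference in OCsEo was -0.69.

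Read as counts, 4 of the 10 genes, *Egln1*, *Egln3*, *Bnip3* and *Ankrd37*, were past the threshold upward in OCsEo, where 3.27% of all genes tested were, and 1, *Vegfa*, downward, where 2.61% were. The threshold was an adjusted p under 0.05 by edgeR's quasi-likelihood test with an absolute log2 fold change over 0.5. In OCsEoS, 1 gene, *Ankrd37*, was past it upward beside 3.63% of all genes, and *Vegfa* downward beside 4.11%. Between OCsEoS and OCsEo none of the 10 was past it in edgeR (2 at an unadjusted p under 0.05), beside 0.0731% of all genes higher and 0.307% lower in OCsEoS, and none in DESeq2. As the choice of the genes used these contrasts, the counts describe the set. *Vegfa* at -0.53 in OCsEo and *Egln1* at 0.51 lay just inside the limit of 0.5 on the fold change, and the values next below it against OCsCtr were those of *Bnip3* in OCsEoS at 0.42 and of *Egln1* in OCsEoS at 0.27, which were also outside the limit on p. *Egln3* in OCsEoS at 1.30 and *Epas1* in OCsEo at 0.65 were past the limit on the fold change but not that on p. *Egln3* in OCsEoS was called under 6 of 23 alternatives, among them DESeq2 on the 2 groups compared and the fit without OCsEoS 4. The median log2 difference of the 10 genes was 0.25 in OCsEo and 0.16 in OCsEoS, with -0.01 in both comparisons over all genes tested. Both comparisons share the OCsCtr libraries. The calls of *Egln1*, *Bnip3*, *Ankrd37* and *Vegfa* were lost when single libraries were left out, and the number past the threshold in OCsEo fell from 5 to 2 without OCsCtr 1, OCsCtr 4 or OCsEo 4, and that in OCsEoS from 2 to 0 without OCsCtr 1, OCsCtr 4 or OCsEoS 1.

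**Figure D3:**
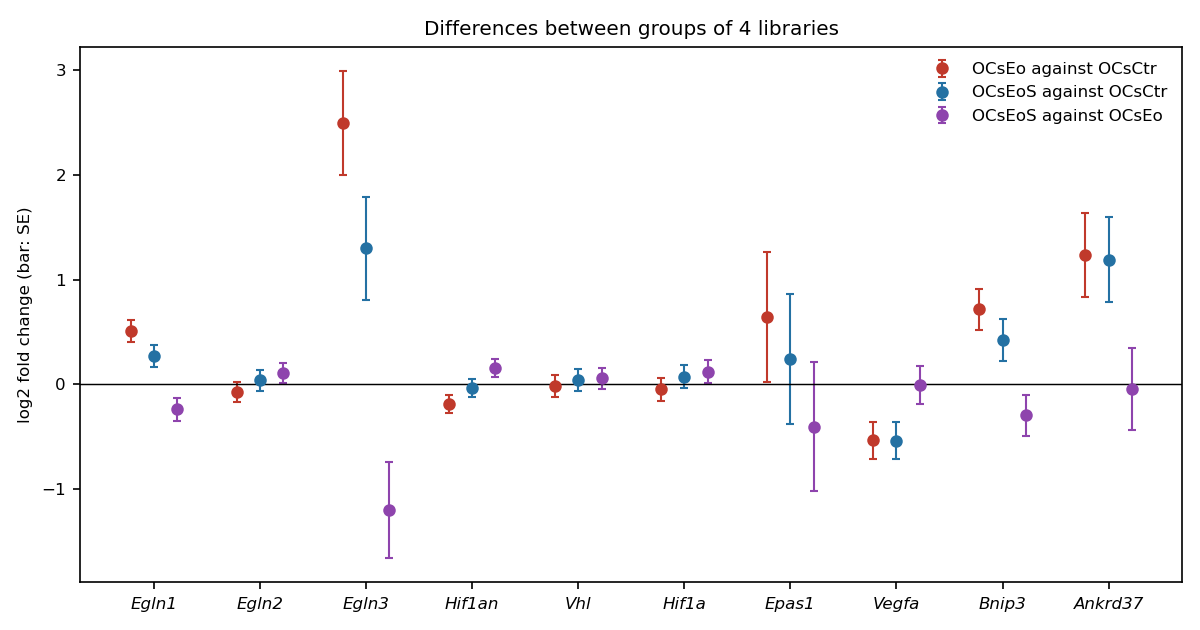
Log2 fold change (y axis) of the 10 genes (x axis) in the 3 comparisons, each point being the fitted value of 4 against 4 libraries and the bar its SE. *Egln3* is highest with 2.50 in OCsEo against OCsCtr, and *Vegfa* lies at -0.53 and -0.54 against OCsCtr in both stimulated groups.

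The wider pathway was read from a list of 107 other genes of HIF regulation and response, of which 93 passed the filter on low counts and the other 14 had at most 28 counts in any library, among them *Hif3a*, *Epo*, *Nos2* and *Adm*. This list too was chosen with earlier results of these data known. Its counts, shares and p-values, here and below, are therefore a description and no independent support. In OCsEo, 10 of the 93 genes rose and 1 fell, 11.8% together beside 5.88% of all genes tested. In OCsEoS 6 rose and 3 fell, 9.68% together beside 7.73% of all genes, a share near the background. Without OCsEo 4 the number that rose in OCsEo was 5. The median log2 difference of the 93 was 0.05 in OCsEo and 0.03 in OCsEoS. Between OCsEoS and OCsEo, 0 of the 93 passed edgeR's test, with 12 at an unadjusted p under 0.05, and DESeq2 called 1 gene higher on all 12 libraries and 2 on the 2 groups alone.

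None of the 5 tested subunit and coactivator genes passed both limits in either stimulated group. *Arnt*, the gene of the partner of the alpha subunits, was past the limit on p and not that on the fold change, with log2 differences of -0.38 (SE 0.13, adjusted p = 0.0495) in OCsEo and -0.40 (SE 0.13, adjusted p = 0.0309) in OCsEoS. All 8 stimulated libraries, at 15.0 to 20.9 CPM in OCsEo and 15.5 to 21.9 CPM in OCsEoS, lay below the controls, at 22.5 to 27.1 CPM. *Arnt* was named after its values were seen. Among 10 genes of HIF turnover and feedback, 0 passed in OCsEo. In OCsEoS 1 rose, 10% beside 7.73% of all genes called in either direction, a share near the background. This gene was *Siah1b*, which encodes a ubiquitin ligase of the SIAH family that can target prolyl hydroxylases. Its level was 5.36 to 7.40 CPM in OCsCtr and 8.51 to 10.96 CPM in OCsEoS without overlap, a log2 difference of 0.60 (SE 0.18, adjusted p = 0.0203), which did not pass without OCsCtr 3, OCsEoS 3 or OCsEoS 4.

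Among 23 genes of glucose transport and glycolysis, 1 rose in OCsEo (4.35%, beside 5.88% of all genes called in either direction), *Slc16a3*, which encodes the lactate exporter MCT4. It was at 73.6, 79.3, 85.3 and 98.2 CPM in OCsCtr, 116, 170.0, 177 and 263 CPM in OCsEo, and 155, 160.0, 159.7 and 124 CPM in OCsEoS. All 8 stimulated libraries lay above the controls, and OCsEo 1 and OCsEoS 4 were the lowest of their groups, as for *Bnip3*. The log2 difference was 1.11 (SE 0.16, adjusted p = 1.03e-04) in OCsEo and 0.83 (SE 0.16, adjusted p = 8.70e-04) in OCsEoS. Of the abundant glycolytic enzymes, *Aldoa* was -0.04 (SE 0.07), *Pgk1* 0.14 (SE 0.06), *Pkm* 0.04 (SE 0.05) and *Ldha*, lactate dehydrogenase A, 0.36 (SE 0.07) on the log2 scale in OCsEo. Of these, *Ldha* had an adjusted p of 9.35e-04, below the limit on p but also below that on the fold change, with 2260 to 2395 CPM in OCsCtr and 2547 to 3485 in OCsEo. In OCsEoS *Ldha* was at 2817 to 2958 CPM, 0.31 above OCsCtr on the log2 scale (SE 0.07, adjusted p = 0.00224), and in neither stimulated group did a library reach down to the controls. In OCsEoS, 1 of the 23 genes, *Slc16a3*, rose and 2 fell, 13% together beside 7.73% of all genes. *Aldoc*, an aldolase, fell by 0.75 (SE 0.12, adjusted p = 1.79e-04) on the log2 scale. *Gys1*, a glycogen synthase, fell by 0.56 (SE 0.13, adjusted p = 0.00403) and did not pass without OCsEoS 4.

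Mitochondrial and mitophagy targets gave 1 rise among 7 genes in OCsEo (14.3%, beside 5.88% of all genes) and 0 calls in OCsEoS. The gene that rose was *Ak4*, an adenylate kinase of the mitochondrial matrix. Its values of 3.85, 2.61, 3.62 and 5.16 CPM in OCsCtr, 4.12, 9.33, 11.6 and 21.4 CPM in OCsEo, and 9.18, 9.84, 7.72 and 3.03 CPM in OCsEoS ran close to those of *Egln3*. OCsEo 1 and OCsEoS 4 lay within the control span here. The log2 difference was 1.60 (SE 0.38, adjusted p = 0.00575) in OCsEo, and 0.96 (SE 0.38, adjusted p = 0.0748) in OCsEoS. *Ndrg1*, a gene induced by stress and low oxygen, was at 13.0 to 20.2 CPM in OCsCtr, 17.9, 34.8, 30.6 and 47.7 CPM in OCsEo, and 15.7 to 30.2 CPM in OCsEoS, again with OCsEo 1 and OCsEoS 4 within the control span. Its log2 difference was 1.08 (SE 0.23, adjusted p = 0.00243) in OCsEo, and 0.57 (SE 0.23, adjusted p = 0.081) in OCsEoS.

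Of the remaining groups of targets, the 12 angiogenic and secreted genes gave 2 rises in OCsEo and 1 in OCsEoS, the 5 genes of pH, iron and heme 1 in each, the 6 of matrix and protein folding 0 in each, the 12 of chromatin and transcription, which include *Ndrg1*, 2 rises and 1 fall in OCsEo and 1 rise and 1 fall in OCsEoS, the 8 other core targets 2 rises in OCsEo and 0 in OCsEoS, and the 5 myeloid targets 1 rise in each. With so few genes a group and 5.88% and 7.73% of all genes called in either direction in OCsEo and OCsEoS, these counts are given as a listing, and that of the angiogenic genes in OCsEoS (8.33%) is near the background. Several of these genes rose in both stimulated groups. *Angptl4*, a secreted inhibitor of lipoprotein lipase, was at 0.653 to 1.94 CPM in OCsCtr, 2.64 to 4.21 in OCsEo and 2.22 to 3.27 in OCsEoS, with log2 differences of 1.39 (SE 0.33, adjusted p = 0.00527) and 1.11 (SE 0.33, adjusted p = 0.0183). *Bhlhe41*, a transcriptional repressor, was at 2.36 to 2.99 CPM in OCsCtr, 3.92 to 7.10 in OCsEo and 3.53 to 8.95 in OCsEoS, with 1.01 (SE 0.26, adjusted p = 0.00994) and 1.10 (SE 0.26, adjusted p = 0.00402). *Hmox1*, heme oxygenase 1, was at 52.1 to 58.1 CPM in OCsCtr, 74.6 to 82.2 in OCsEo and 76.1 to 95.3 in OCsEoS, with 0.51 (SE 0.08, adjusted p = 1.32e-04) and 0.56 (SE 0.08, adjusted p = 4.63e-05). For none of these 3 genes did a stimulated library reach down to the controls. Of the 93 genes, 17 lay fully above the controls in OCsEo and 17 in OCsEoS, and 8 and 13 lay fully below. Over all 13681 genes tested, 1441 and 1727 lay fully above and 1498 and 1795 fully below, so a lack of overlap is given as a description. *Angptl4* in OCsEoS did not pass without OCsCtr 3 or OCsCtr 4, and *Hmox1* fell below the limit on the fold change without OCsCtr 4, OCsEo 3 or OCsEo 4 in OCsEo, without OCsEoS 1 in OCsEoS, and in both with the gene length trend taken out (0.44 and 0.48).

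In OCsEo, 3 more genes rose by about the limit of the fold change. *Pgf*, a ligand of VEGF receptor 1, rose by 0.53 (SE 0.17, adjusted p = 0.0348), *Plin2*, which coats lipid droplets, by 0.51 (SE 0.06, adjusted p = 6.7e-06) and *Ccng2*, cyclin G2, by 0.50 (SE 0.12, adjusted p = 0.00711), all on the log2 scale. *Plin2* and *Ccng2* were named after their values were seen. *Pgf* did not pass without OCsCtr 2, OCsCtr 3, OCsCtr 4, OCsEo 1 or OCsEo 4, nor with the gene length trend taken out. *Rora*, a nuclear receptor gene, fell in both groups, from 5.37 to 8.46 CPM in OCsCtr to 2.08 to 3.64 CPM in OCsEo and 2.99 to 4.57 CPM in OCsEoS. The groups did not overlap with the controls, and *Rora* fell by 1.18 (SE 0.22, adjusted p = 0.00113) and 0.74 (SE 0.22, adjusted p = 0.0198) on the log2 scale, the latter not without OCsCtr 4 or OCsEoS 1, nor with the gene length trend taken out.

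*Arg1*, arginase 1, a marker of alternatively activated macrophages, had another order of groups. It was at 0.178 to 0.555 CPM in OCsCtr, 0.628, 0.744, 0.667 and 2.22 CPM in OCsEo, and 5.37, 4.17, 2.64 and 2.57 CPM in OCsEoS. The controls held 16, 6, 9 and 14 counts, around the minimum count of 10 in the filter. *Arg1* thus passed the filter through its stimulated libraries, where it was high, and its p-values are a description only. With at least 10 counts required in every library it was not tested. All OCsEoS libraries lay above all OCsEo libraries, whereas for *Egln3*, *Ak4* and *Ndrg1* OCsEo had the higher mean. The log2 difference from OCsCtr was 1.56 (SE 0.50, adjusted p = 0.0341) in OCsEo and 3.36 (SE 0.50, adjusted p = 8.47e-05) in OCsEoS. In OCsEo the call was lost under 7 of 22 alternatives, which were leaving out OCsCtr 2, OCsCtr 3, OCsCtr 4 or OCsEo 4 (0.93 without the last), edgeR or DESeq2 on the 2 groups alone, and taking out the gene length trend. Between OCsEoS and OCsEo it was 1.80 (adjusted p = 0.0827), which does not pass.

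**Figure D4:**
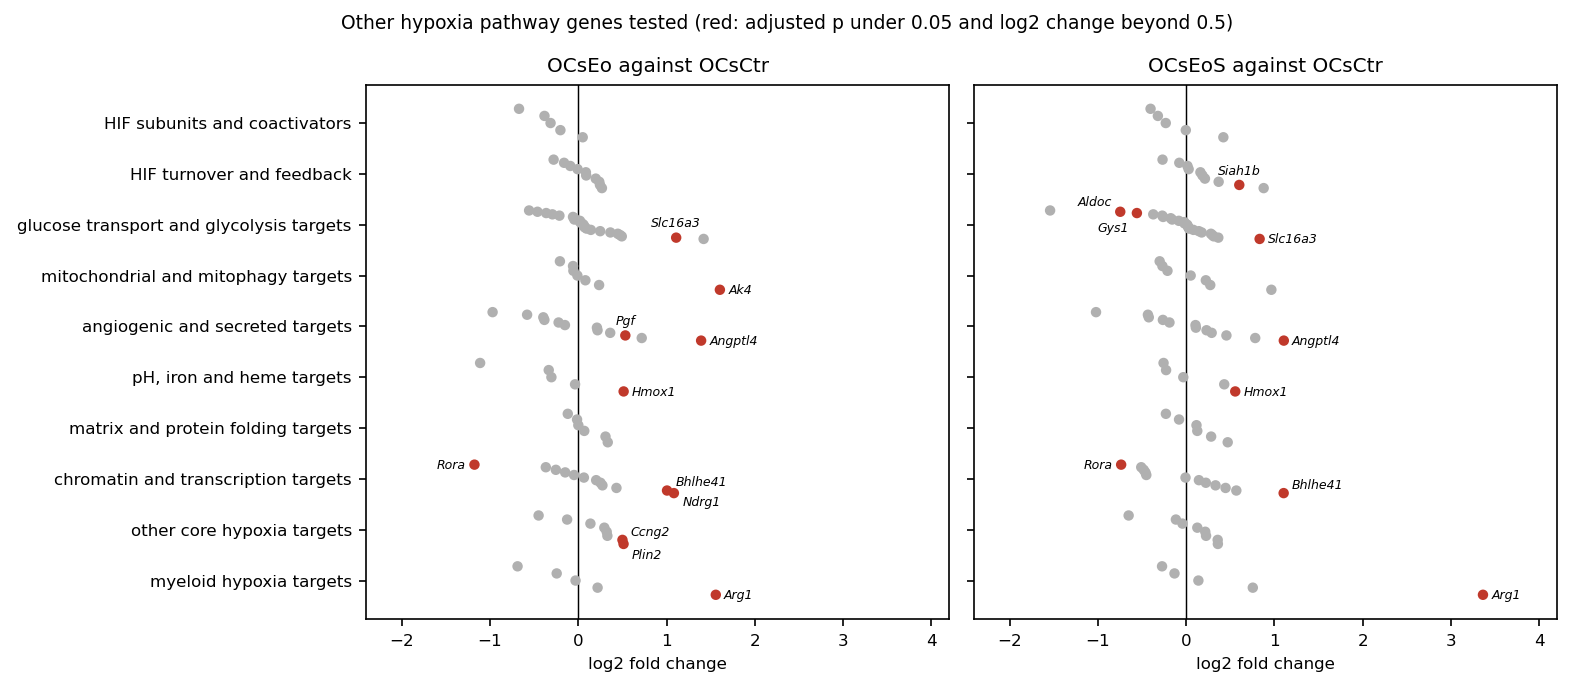
Log2 fold change (x axis) of the 93 other pathway genes tested, each point 1 gene, by group of genes (y axis), for OCsEo (left) and OCsEoS (right) against OCsCtr. Red points with names are the genes past the threshold, 10 higher and 1 lower in OCsEo and 6 higher and 3 lower in OCsEoS, and most grey points lie near 0.

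The pathway genes differed from library to library, between groups and within them, and *Egln3* served as the reference for likeness over all 12 libraries. Over the 12 libraries, the genes with the highest Pearson r to *Egln3* in log2 CPM among the 9600 genes whose mean log2 CPM reached 2 were *Ak4* (0.96), *Anxa9* (0.92), the phosphofructokinase gene *Pfkl* (0.92), *Poc1a* (0.89) and *Ndrg1* (0.89). The lowest were *Dtx2* (-0.90), the cystatin gene *Cst7* (-0.90) and the pseudogene *Rab11b-ps2* (-0.88). All 12 points share the grouping, so r includes the difference between groups, and it is given as a description. Among the 10 genes, r with *Egln3* was 0.86 for *Bnip3*, 0.86 for *Ankrd37*, 0.73 for *Egln1* and 0.02 for *Vhl*. It was -0.74 for *Hif1an*, -0.49 for *Egln2*, -0.32 for *Hif1a*, -0.20 for *Vegfa* and -0.07 for *Epas1*. Of the 93 other pathway genes, 14 (15.1%) had an r over 0.7 with *Egln3*, beside 1.73% of all genes tested, and their median r was 0.22 beside -0.01. These 14 included the glycolytic genes *Pfkl* (0.92), *Pgk1* (0.85), *Tpi1* (0.84) and *Ldha* (0.79) together with *Slc16a3* (0.85), the proline hydroxylase gene of collagen *P4ha1* (0.81) and *Ccng2* (0.83). Glycolysis genes did not follow *Egln3* as a whole. Others of that list had a low or negative r, among them *Aldoa* (0.33), *Gpi1* (0.21), *Gys1* (-0.05), *Aldoc* (-0.11), *Gapdh* (-0.50) and *Pfkfb3* (-0.51).

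OCsEo 4, OCsEoS 4 and the control library OCsCtr 4 held many of the extreme values. OCsEo 4 was the highest of the 12 libraries for 25 of the 93 genes (26.9%), beside 7.29% of all genes tested, and for 3 of the 10, *Egln1*, *Egln3* and *Bnip3*. OCsEoS 4 was the lowest for 22 of the 93 (23.7%), beside 14.7% of all genes. OCsCtr 4 was the highest for 17 of the 93 (18.3%, beside 12.1% of all genes) and the lowest for 11 (11.8%, beside 13.3%). OCsCtr 2 was the lowest for 13 (14%, beside 7.78%). Many extremes were thus not particular to the stimulated libraries. After centring each gene on its mean, the median log2 CPM of the 93 genes was 0.13 in OCsEo 4, -0.06 in OCsEo 1 and -0.06 in OCsEoS 4, and -0.04 to 0.06 in the controls. OCsEo 4 had 29508222 counts and 0.538% mitochondrial transcripts, within the span of the other libraries, and its summed eosinophil markers (60.1 CPM) and neutrophil markers (457 CPM) were the lowest of OCsEo. Its macrophage markers (7231 CPM) were the highest of the 12 libraries, where the next was 6459 CPM in OCsEoS 1, and its osteoclast markers (23205 CPM) the highest of OCsEo. OCsEoS 4 had 34072862 counts and 0.898% mitochondrial transcripts, the highest of OCsEoS. Its osteoclast markers (14942 CPM) were the lowest of the 12 libraries and its macrophage markers (5483 CPM) the lowest of OCsEoS. The part of these markers in the levels of the pathway genes was not tested. The libraries were picked out here by these values, and their part in the group differences is covered by the values without them.

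**Figure D5:**
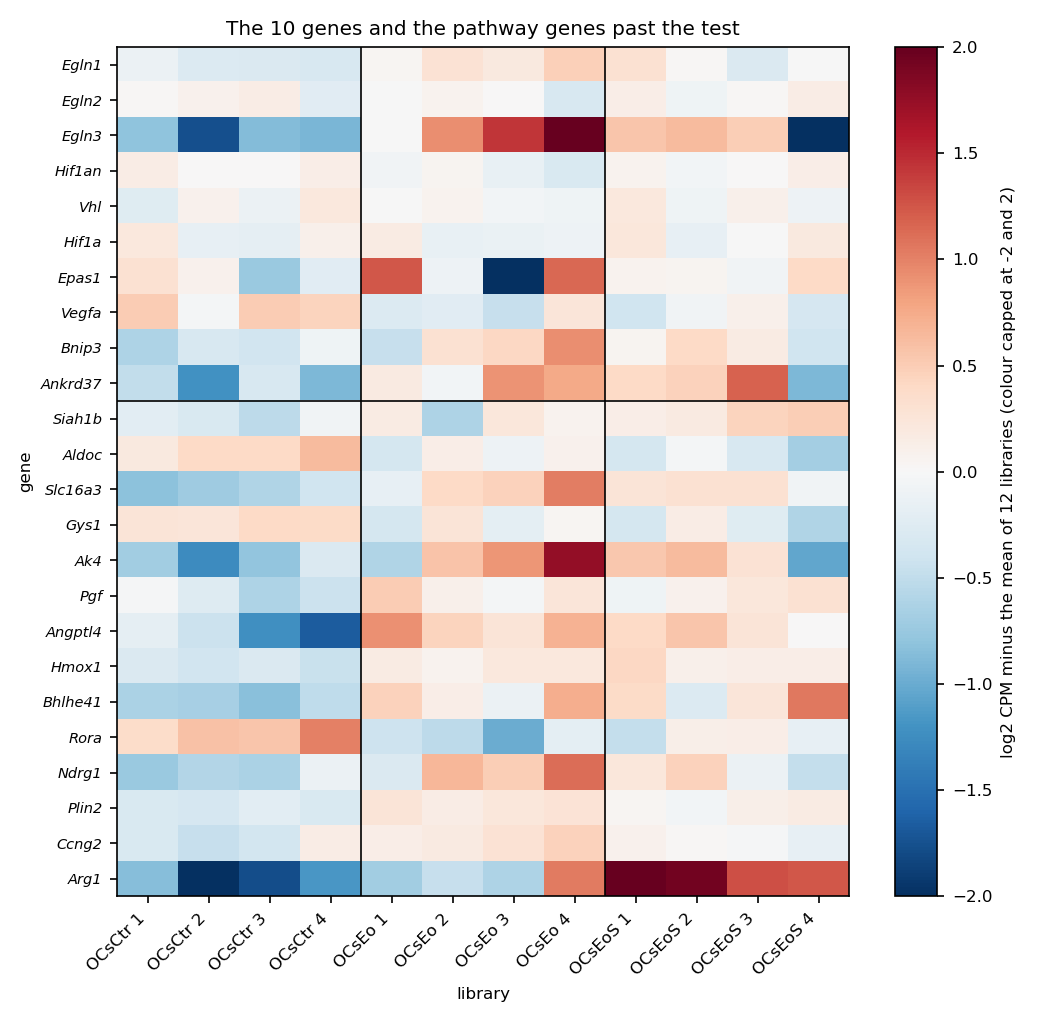
Heat map of log2 CPM minus the mean of the 12 libraries (colour, capped at -2 and 2) for the 10 genes (above the line) and the 14 other pathway genes past the threshold in OCsEo or OCsEoS (below), with libraries as columns. *Egln3*, *Ak4*, *Slc16a3* and *Ndrg1* are highest in OCsEo 4, and in OCsEoS 4 *Egln3*, *Ak4* and *Ankrd37* lie at or below the control libraries' mean.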

How the data were processed

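Bulk RNA-seq. counts of 12 libraries (OCsCtr, OCsEo and OCsEoS, 4 each) were used as deposited by the authors, who per the labels and methods cleaned the reads with fastp, aligned them to mm10 with HISAT2 2.0.5 and counted reads per gene with featureCounts. The counts are raw whole numbers for 47643 genes and the strand setting is not given in the sources used here. The 4 libraries of a group are biological replicates per the methods, and the study states for the figure that holds them that symbols stand for single mice, though the labels name no mouse. The libraries held 27837530 to 40327869 counts. Gene lengths and positions are those of the deposited table, overlaps were taken from GENCODE vM21 (99.1% of the gene identifiers matched) and promoter sequences from RefSeq (GRCm38.p6).

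The members and all gene lists were chosen with earlier results of these data known. In R 4.3.3 with edgeR 4.0.16, genes with low counts were removed (filterByExpr, minimum count 10), which left 13681, libraries were scaled by TMM, and 1 fit of all 12 libraries was compared by the quasi-likelihood test of edgeR (two-sided), with p-values adjusted over all genes tested (Benjamini-Hochberg). Calls required an adjusted p below 0.05 together with a log2 fold change beyond 0.5 in either direction. SE is that of the fitted log2 fold change. CPM use TMM-scaled library sizes, and log2 CPM for correlations a prior count of 2. Named beside the 10 genes were, for each comparison, pathway genes that passed with the largest changes, *Aldoa*, *Pkm*, *Ldha* and *Pgk1*, and the genes most and least like *Egln3*. Alternatives were DESeq2 1.42.0, other scalings, filters, groups and thresholds, a replicate block and each library left out in turn. A fit corrected for a trend with gene length in each library was added after the data were seen. Scripts were tested on simulated data.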

Additional observations from a re-analysis of the deposited data

Results flagged for a closer look

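A library was singled out where, among the 4 of its group, its gap to the nearest other took up more of the whole range than Dixon's 95% critical value for groups of 4 allows. Of 81 groups of values looked at, 7 did so, and chance gives about 1 in 20. *Egln3* was low in OCsCtr 2 (0.6825 CPM, the others 1.27 to 1.39) and in OCsEoS 4 (0.554 CPM, the others 3.47 to 3.85). *Slc16a3* was low in OCsEoS 4 as well (123.7 CPM, the others 155 to 160.0). *Vegfa* was low in OCsCtr 2 (7.834 CPM, the others 10.9 to 11.5). *Arg1* was high in OCsEo 4 (2.217 CPM, the others 0.628 to 0.744), *Hif1a* in OCsEo 1 (44.59 CPM, the others 35.9 to 37.1) and *Hmox1* in OCsEoS 1 (95.29 CPM, the others 76.1 to 78.2). What sets these libraries apart was not tested.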

How the results depend on the processing

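As a description of the chosen genes, the log2 difference of *Egln3* ranged from 1.99 to 2.77 in OCsEo and from 1.12 to 1.65 in OCsEoS over 23 alternatives, and was -1.48 to -0.69 between OCsEoS and OCsEo. With single libraries left out, the 10 genes gave 2 to 5 calls in OCsEo (5 with all libraries) and 0 to 3 in OCsEoS (2 with all libraries). The other pathway genes then gave 5 to 12 higher (10 with all libraries) and 1 to 4 lower (1 with all libraries) in OCsEo, 2 to 5 lower in OCsEoS (3 with all libraries), and 0 to 1 higher and 0 to 1 lower between OCsEoS and OCsEo (0 each with all libraries), where all genes gave 17 to 62 calls (52 with all libraries, fewest without OCsEoS 3). With no threshold on the fold change, calls over all genes were 2382, 3151 and 81 in the 3 comparisons, and the other pathway genes gave 21 higher and 8 lower in OCsEo and 15 and 13 in OCsEoS. At a log2 fold change over 1, all genes gave 136, 160 and 21, the 10 genes 2 and 1, and the other pathway genes 6 higher in OCsEo and 3 higher and 0 lower in OCsEoS. Without a filter on low counts, the other pathway genes gave 3 lower in OCsEo and 5 lower in OCsEoS, and between OCsEoS and OCsEo all genes gave 100, the 10 genes 1, and the other pathway genes 2 higher and 1 lower. On the 2 groups compared, the other pathway genes gave 2 lower in OCsEo by DESeq2 and 2 by edgeR, 2 higher between OCsEoS and OCsEo by DESeq2, and the 10 genes 1 call in OCsEoS by edgeR. DESeq2 on all 12 libraries gave 1 higher between OCsEoS and OCsEo. With the gene length trend taken out, the 10 genes gave 3 and 1 calls. The cause of these shifts was not tested. Among the 10 genes, differences near 0 changed sign over the alternatives for *Egln2* (-0.14 to 0.010 in OCsEo and -0.038 to 0.092 in OCsEoS), *Hif1a* in OCsEo (-0.13 to 0.025), *Vhl* (-0.087 to 0.066 and -0.036 to 0.12) and *Hif1an* in OCsEoS (-0.057 to 0.063), and between OCsEoS and OCsEo for *Vegfa* and *Ankrd37*. Among the other named genes, small differences changed sign for *Aldoa* in OCsEo (-0.11 to 0.022 with single libraries left out), *Pkm* (-0.0099 to 0.071 in OCsEo and -0.0335 to 0.0025 in OCsEoS), *Ldha* between OCsEoS and OCsEo (-0.13 to 0.027) and *Pgk1* in OCsEoS (-0.010 to 0.065, and -0.042 without the length trend).

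With the replicate number as a replicate block, the 10 genes gave 5 and 2 calls and the other pathway genes 10 higher and 1 lower in OCsEo. The deviations of libraries with the same number correlated by r of -0.044 to 0.094. Libraries with different numbers were not compared in this way, so these values cannot decide whether the numbers pair the libraries. No call of the 10 genes changed with the block. *Epas1*, *Egln3* and *Ankrd37* carried the largest SE of the 10 genes, 0.39 to 0.62 on the log2 scale, and replicates differed by more than counting noise (chi-square over degrees of freedom of 10.3 to 36.9), so that depth alone does not set the precision.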
